A study of Mus musculus with 6 samples.

Results

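The homeobox genes Barx1, Nkx2-3, Nkx2-5, Nkx3-2, Pitx1, Hlx, Tlx1 and Six2 pattern the mesenchyme of the stomach, the gut and the spleen, or the stomach itself. They are 8 of the 19938 genes that the array measured with a row of a single gene symbol. They were chosen by name, with earlier results of these data known. Each of the 8 has 1 row on the array and none shares a row with another symbol, so no choice between rows was needed. RNA came from mouse pancreata of embryonic day E13.5, in 3 pools of control embryos, labelled wild type, and 3 pools of Pdx1-Cre; Ctnnb1tm1Mmt/+ embryos (mutant pools), labelled beta-catenin activated. In the mutant embryos the Pdx1 promoter drives Cre recombinase in the epithelium of the primordium, where it excises the floxed exon 3 of a single Ctnnb1 copy, and the shortened β-catenin is no longer marked for degradation. Each pool joined the pancreata of 3 embryos and was measured on 1 Affymetrix Mouse Gene 1.0 ST array. Values are log2 array values as the authors deposited them. In what follows, controls and mutants stand for the 3 pools of each genotype, in the order of their replicate numbers, and SE for standard error. The arrays of a genotype correlated at 0.993 to 0.997 and those of different genotypes at 0.973 to 0.979 over all genes.

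A homeobox gene encodes a transcription factor that binds DNA through a homeodomain. In the embryo the pancreatic buds lie next to the stomach, the duodenum and the rudiment of the spleen, and share a layer of visceral mesenchyme with them. Barx1 is known for the mesenchyme of the stomach, Pitx1 for the posterior foregut and the hindlimb, and Six2, Nkx2-5 and Nkx3-2 (also called Bapx1) for the hindstomach and the pyloric sphincter. Nkx2-3 and Hlx are active in the visceral mesoderm along the gut, and Tlx1 (also called Hox11) is needed to form the spleen, where Nkx3-2, Nkx2-5 and Nkx2-3 act as well. Cre in these embryos is not driven in the mesenchyme by design, while the arrays measured epithelium and mesenchyme of the dissected organ together. More cells of a type and more RNA per cell cannot be told apart in such samples.

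Promoter windows of 7 of the 8 genes were found in RefSeq (assembly GRCm38.p6), and Pitx1 had no entry. Each window runs from 250 bases before to 50 bases after the annotated start of the gene. The windows of 3 genes that rose and of 1 that did not pass the test are shown in full. Capitals mark the core of sites for GLI factors (CCACCCA), which carry hedgehog signals, the core for TCF/LEF factors (CTTTGA), the partners of β-catenin in the nucleus, and the CCAAT box. Each was searched on both strands, and a match on the opposite strand shows as its reverse complement. In the Nkx2-3 window a CCAAT box and its reverse complement overlap, and the Nkx3-2 window holds no match. A forkhead core (GTAAACA) was searched too. The windows are chr13:48662786-48663085 on the plus strand for Barx1, chr19:43612075-43612374 on the plus strand for Nkx2-3, chr17:26841516-26841815 on the minus strand for Nkx2-5 and chr5:41764171-41764470 on the minus strand for Nkx3-2.
Barx1: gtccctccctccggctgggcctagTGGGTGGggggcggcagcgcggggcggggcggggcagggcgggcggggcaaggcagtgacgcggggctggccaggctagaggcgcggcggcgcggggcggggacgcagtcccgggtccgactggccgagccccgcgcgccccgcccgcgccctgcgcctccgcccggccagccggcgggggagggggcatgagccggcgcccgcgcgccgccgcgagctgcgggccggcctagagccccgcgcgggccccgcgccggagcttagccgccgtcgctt
Nkx2-3: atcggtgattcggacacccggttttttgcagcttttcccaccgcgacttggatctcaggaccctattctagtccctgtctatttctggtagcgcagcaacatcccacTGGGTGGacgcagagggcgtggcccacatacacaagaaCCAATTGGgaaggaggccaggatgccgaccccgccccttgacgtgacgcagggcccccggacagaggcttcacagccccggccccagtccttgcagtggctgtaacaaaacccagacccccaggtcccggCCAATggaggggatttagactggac
Nkx2-5: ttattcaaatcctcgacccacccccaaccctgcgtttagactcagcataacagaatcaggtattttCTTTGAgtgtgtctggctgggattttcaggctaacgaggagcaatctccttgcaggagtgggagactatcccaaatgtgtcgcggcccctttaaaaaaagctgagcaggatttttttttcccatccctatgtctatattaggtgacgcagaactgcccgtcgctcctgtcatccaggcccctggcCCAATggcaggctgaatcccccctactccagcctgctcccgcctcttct
Nkx3-2: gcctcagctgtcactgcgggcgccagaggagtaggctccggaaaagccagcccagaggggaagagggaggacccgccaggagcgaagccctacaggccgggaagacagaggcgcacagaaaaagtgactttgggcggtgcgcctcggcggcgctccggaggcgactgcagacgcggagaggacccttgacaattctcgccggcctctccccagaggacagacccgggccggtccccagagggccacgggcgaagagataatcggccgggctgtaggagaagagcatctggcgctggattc
The GLI core was present in the windows of Barx1 and Nkx2-3, at positions -226 and -143 from the start, and in 9.3% of all 32851 promoter windows. The TCF/LEF core was present in the window of Nkx2-5 alone among the 7, at position -184, and in 16% of all windows. The CCAAT box was present in 5 of the 7, those of Nkx2-3, Nkx2-5, Hlx, Tlx1 and Six2, and in 37.4% of all windows. The forkhead core was in none of the 7 and in 3.65% of all windows. The Barx1 window held 84.7% G and C, more than 99.8% of all windows (median 52.7%), and that of Nkx3-2 66.7%. A match describes the letters in the window and is no measure of binding.

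Of the 8 genes, 6 were higher in the mutant pools and none was lower (limma, adjusted p under 0.05, n = 3 pools per genotype), and none was lower at an unadjusted p under 0.05 either. Among all 19938 genes 6.59% were higher and 7.53% were lower by the same test, 14.1% in either direction. Six2, Barx1, Nkx2-3 and Hlx rose at least 2-fold, Pitx1 rose 1.99-fold and Nkx2-5 rose 1.57-fold. Tlx1 and Nkx3-2 did not pass the test. The median log2 change of the 8 genes was 1.01, against 0.03 over all genes. Barx1, Nkx2-3 and Pitx1 are among genes that the study picked on these arrays for being higher, so their direction here is not independent evidence. By quantitative PCR the study found Pitx1 higher at a later stage. It names Barx1 and Nkx2-3 among mesenchymal regulators that were higher by arrays and PCR together. The 5 genes other than Barx1, Nkx2-3 and Pitx1 hold 3 of the 6 increases, those of Nkx2-5, Hlx and Six2. They too were chosen with earlier results of these data known, so their count is a description. In the same 6 genes all 3 mutant pools lay above all 3 control pools, as in 16.9% of all genes. The reverse held in 13.9% of all genes and in none of the 8, so that pools were separate in 30.9% of all genes. The smallest p that an exact permutation test can reach with 3 pools a genotype is 0.1, and calls on each gene are those of limma.

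**Figure D1:**
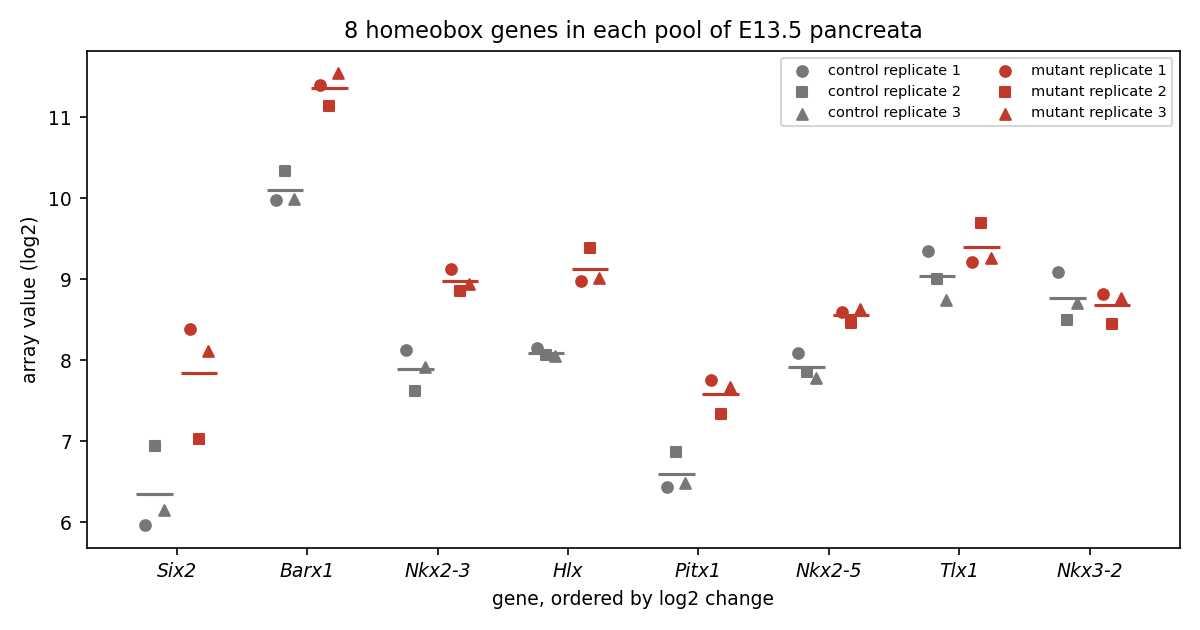
Values of the 8 genes in each pool (vertical axis, log2 array value), ordered by log2 change; each symbol is 1 pool (circle, square and triangle for replicates 1, 2 and 3), and bars are group means over 3 pools (controls in grey, mutants in red). All mutants lie above all controls in each gene but Tlx1 and Nkx3-2, with the narrowest gap, 0.08, in Six2.

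Among the stomach genes, Barx1, which the mesenchyme of the stomach uses to restrain Wnt signals to the overlying epithelium, had array values of 9.97, 10.34 and 9.99 in controls and of 11.39, 11.13 and 11.54 in mutants. The groups were separated by 0.80, more than either spread, and the log2 change was 1.25 (SE 0.14, limma adjusted p = 0.000175), a 2.39-fold increase. By the size of its change Barx1 had rank 177 among the 1313 genes that were higher, and Six2 rank 118.
Pitx1, a paired-type homeobox gene of the stomach and the hindlimb, had values of 6.44, 6.86 and 6.48 in controls and of 7.75, 7.34 and 7.67 in mutants. The lowest mutant pool, replicate 2, lay 0.47 above the highest control pool, also a replicate 2. The log2 change was 0.99 (SE 0.15, limma adjusted p = 0.00118).
Six2, a factor of the developing pylorus that is better known for holding nephron progenitors in the kidney, had values of 5.96, 6.95 and 6.15 in controls and of 8.38, 7.02 and 8.12 in mutants. Its log2 change of 1.49 (SE 0.34, limma adjusted p = 0.0158) was the largest point estimate of the 8 and also the least precise, with a 95% interval from 0.72 to 2.25. Mutant replicate 2 exceeded control replicate 2 by only 0.08. The call was lost without replicate 1 or 3 of either genotype (adjusted p from 0.0556 to 0.0706), and the log2 change was 1.78 without control replicate 2 and 1.90 without mutant replicate 2. It was also lost when every row of the array table was fitted (adjusted p = 0.092) and with a trended and robust prior (adjusted p = 0.0864), within a range of 8.49e-05 to 0.092 over its alternatives.

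Nkx2-5, known for the heart and also needed for the pyloric sphincter and the spleen, had values of 8.09, 7.86 and 7.79 in controls and of 8.59, 8.46 and 8.64 in mutants. The groups did not overlap, and the log2 change of 0.65 (SE 0.11, limma adjusted p = 0.00248) was the smallest of the 6 increases. Nkx3-2, another factor of the pylorus and the spleen that also acts in cartilage, had values of 9.08, 8.50 and 8.71 in controls and of 8.82, 8.45 and 8.76 in mutants. The 3 mutant values of Nkx3-2 lay almost wholly within the range of the control values, with mutant replicate 2 just below it. Its log2 change was -0.09 with a 95% interval from -0.44 to 0.26 (SE 0.16, limma adjusted p = 0.805), so an increase like that of Nkx2-5 lies outside this interval.

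Among the genes of the gut mesoderm, Nkx2-3, which is active along the length of the intestine and in the spleen, had values of 8.12, 7.63 and 7.92 in controls and of 9.13, 8.86 and 8.95 in mutants. The lowest mutant pool was 0.73 above the highest control pool. The log2 change was 1.09 (SE 0.13, limma adjusted p = 0.00041).
Hlx, a factor of the visceral mesenchyme without which liver and gut fail to grow, had values of 8.16, 8.07 and 8.06 in controls and of 8.98, 9.38 and 9.02 in mutants. Its control pools were the tightest of the 8 genes, with an SD of 0.05, and its groups were separated by 0.83, the widest gap of the 8. The log2 change was 1.03 (SE 0.12, limma adjusted p = 0.000256), a 2.05-fold increase.
Tlx1, the gene of the spleen rudiment, had values of 9.35, 9.01 and 8.75 in controls and of 9.22, 9.69 and 9.27 in mutants. Control replicate 1 lay above 2 of the 3 mutant pools, so the groups overlapped. Its log2 change was 0.36 with a 95% interval from -0.02 to 0.74 (SE 0.17, limma adjusted p = 0.228), and it ranged from 0.12 with array weights to 0.51 without control replicate 1 and did not pass the test under any alternative.

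**Figure D2:**
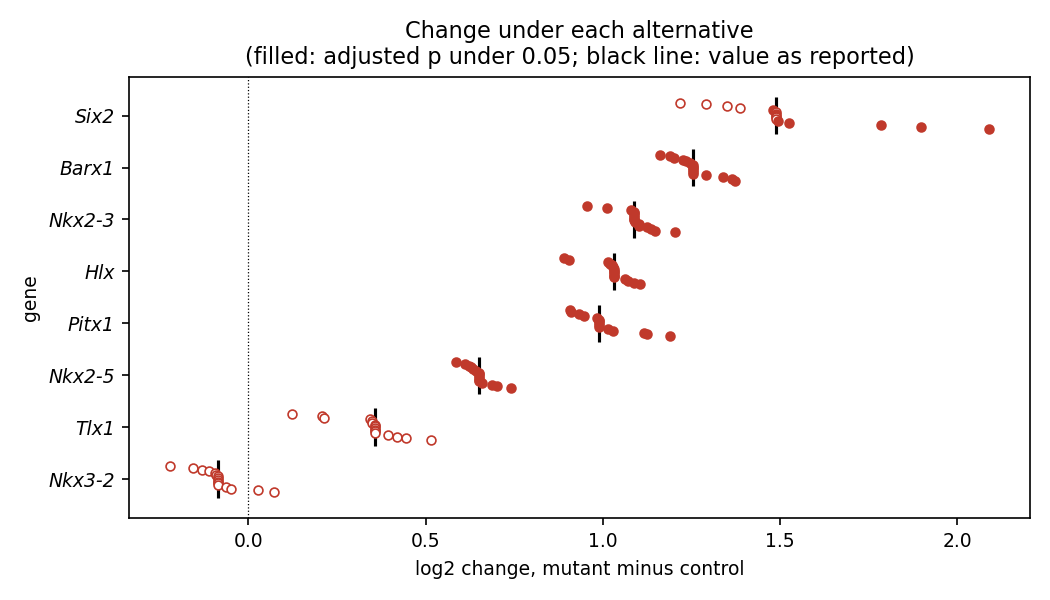
Log2 change, mutant minus control (horizontal axis), of each of the 8 genes under its 15 or 16 alternatives (points, filled where the adjusted p was under 0.05) beside the value as reported (black line). Barx1, Nkx2-3, Hlx, Pitx1 and Nkx2-5 are filled throughout, Six2 in part, and Tlx1 and Nkx3-2 in none.

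The order of the changes, Six2, Barx1, Nkx2-3, Hlx, Pitx1, Nkx2-5, Tlx1 and Nkx3-2, was compared in pairs through the difference between 2 genes within each array, in which any scaling of an array cancels. There were 28 pairs, and the exact permutation test (two-sided) could not go below p = 0.1 for any of them. In 12 of the 28 pairs the pools of the 2 genotypes did not overlap. The pairs share genes and are not independent, and those of Nkx3-2 with each gene that rose are among the 12. The share over all pairs of genes was not computed. The change of Nkx2-3 exceeded that of Nkx3-2 by 1.17 (SE 0.08, exact p = 0.1), and that of Nkx2-5 exceeded it by 0.74 (SE 0.13, exact p = 0.1). For these NK-type genes the within-array difference was larger in every mutant pool than in every control pool. For all 7 pairs of neighbors in the order the pools overlapped. The difference of Six2 over Barx1 was 0.23 (SE 0.37, exact p = 0.7), that of Nkx2-3 over Hlx 0.05 (SE 0.23, exact p = 0.9) and that of Hlx over Pitx1 0.04 (SE 0.30, exact p = 0.9). The largest were those of Tlx1 over Nkx3-2, at 0.44 (SE 0.30, exact p = 0.3), and of Pitx1 over Nkx2-5, at 0.34 (SE 0.21, exact p = 0.2). The change of Barx1 exceeded that of Pitx1 by 0.26 (SE 0.07, exact p = 0.1).

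Deviations of the pools from the mean of their genotype differed among the 8 genes. In the control pools Barx1, Pitx1 and Six2 were highest in replicate 2, by 0.24, 0.27 and 0.59 above their control means, while Nkx2-3, Nkx2-5, Nkx3-2, Hlx and Tlx1 were highest in replicate 1. In the mutant pools, replicate 2 was the lowest for 6 of the 8 genes, by 0.82 below the mean for Six2, and the highest for Hlx and Tlx1, by 0.26 and 0.30. The median deviation of mutant replicate 2 was -0.17 over the 8 genes. Over all genes it was 0.0011, so the deposited values of this array as a whole were not low. Whether its raw signal was low cannot be told, since the normalization was not stated. Without mutant replicate 2, the log2 change of Tlx1 was 0.21 and that of Hlx 0.91, and the number of the 8 genes that were higher was 6, as with all pools. How often mutant replicate 2 is the lowest mutant pool over all genes was not computed. What sets it apart in these 8 genes was not tested.

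**Figure D3:**
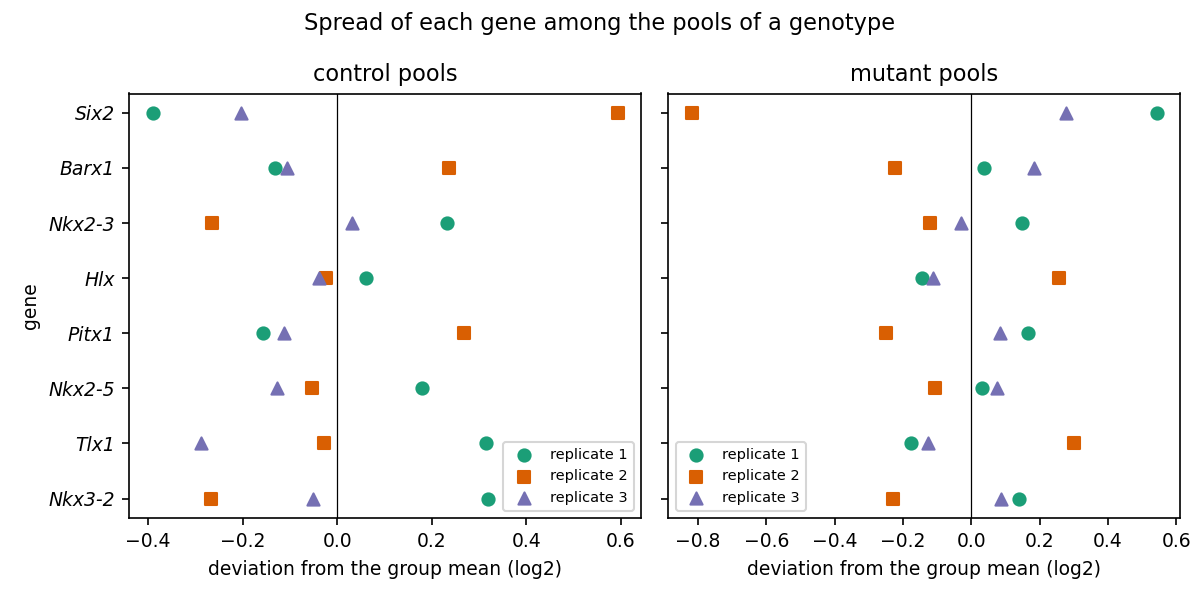
Deviation of each pool from the mean of its genotype (log2, horizontal axis) for the 8 genes, in control pools (left) and mutant pools (right), with replicates by symbol. Replicate 2 of the mutant pools lies lowest in all genes but Hlx and Tlx1, and replicate 2 of the control pools highest in Six2, Barx1 and Pitx1.

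Of 13 relatives measured from the same families, 2 rose, 1 fell and 10 passed in neither direction, beside the 14.1% of all genes that passed, with a median log2 change of 0.16. Nkx2-2, a factor of pancreatic endocrine cells and the close relative of Nkx2-3 and Nkx2-5, fell by 3.16 on the log2 scale (SE 0.10, limma adjusted p = 1.04e-07), from 9.89, 10.00 and 9.72 in controls to 6.71, 6.74 and 6.68 in mutants. The Nkx2 genes thus moved in both directions. Tlx2, which is known for enteric neurons, rose by 0.50 (SE 0.11, adjusted p = 0.0113), and Nkx2-9 by 0.39 (SE 0.09, adjusted p = 0.0166). Tlx2 did not pass without mutant replicate 1, Nkx2-9 not without control replicate 3, mutant replicate 1 or mutant replicate 3, and neither when every row of the array table was fitted (adjusted p up to 0.0599 and 0.0621). Barx2, a relative of Barx1 named after its value was seen, had a log2 change of 0.00 (SE 0.12, adjusted p = 0.996).

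**Figure D4:**
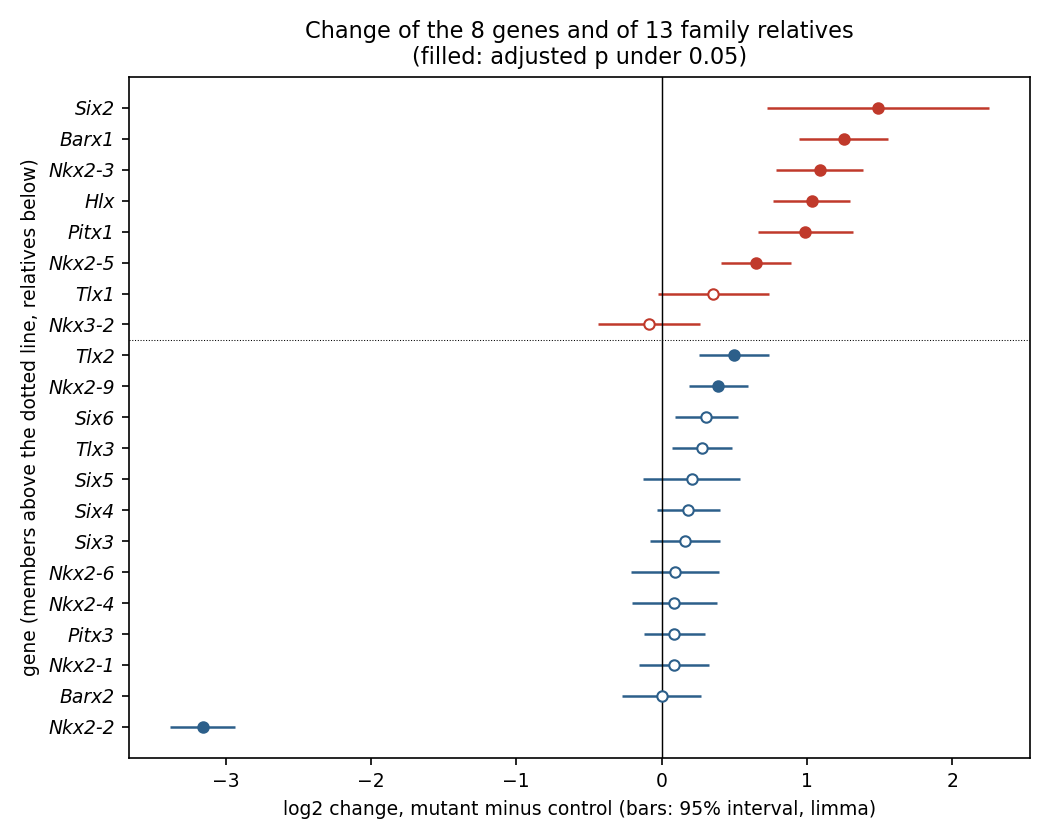
Log2 change, mutant minus control (horizontal axis, bars are 95% intervals from limma), of the 8 genes (red) and of 13 relatives from the same families (blue). Filled points passed an adjusted p under 0.05; the 8 genes span -0.09 to 1.49, and Nkx2-2 lies far to the left at -3.16.

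Genes that work with these factors in the mesenchyme of the stomach and the pylorus were higher in 12 of 16 cases, none fell and 4 passed in neither direction, with a median log2 change of 0.68. The number that were higher ranged from 9 to 11 when 1 pool was left out, and Tbx5 was then lower without control replicate 2 and Sox9 without control replicate 3. This number was 9 with the replicate number as a block. When every row of the array table was fitted, or at an adjusted p under 0.01, it was 8. Foxf2 (log2 change 4.01, SE 0.19) and Foxf1 (3.54, SE 0.11), forkhead factors that respond to hedgehog in gut mesenchyme, changed more than any of the 8 homeobox genes. Bmp4, a ligand of that mesenchyme, and Foxl1, a forkhead factor next to the epithelium, rose by 2.20 (SE 0.11) and 1.73 (SE 0.13). Sfrp1 and Sfrp2, secreted Wnt inhibitors that depend on Barx1 in the stomach, changed by 0.58 (SE 0.13, adjusted p = 0.0138) and by -0.04 on the log2 scale (SE 0.14, where adjusted p was 0.9), and Sfrp1 did not pass without mutant replicate 1 or when every row of the array table was fitted (adjusted p up to 0.0689). In the pylorus Nkx2-5 is known to act through Sox9 and with Gata3. Sox9 had a log2 change of -0.33 (SE 0.13, adjusted p = 0.14), with pools of both genotypes overlapping, and it passed as lower without control replicate 3 and with array weights. The study counts Sox9 among transcription factors of pancreas formation too, and found it lower by quantitative PCR. Its array value joins epithelium and mesenchyme, so it is no measure of Sox9 in the mesenchyme alone. Gata3 was higher by 0.45 (SE 0.11, adjusted p = 0.0247), and did not pass when replicate 3 of either genotype, control replicate 2 or mutant replicate 1 was left out (adjusted p up to 0.0916 over its alternatives). Sfrp1, Sfrp2, Sox9, Gata3 and Tbx5 were named after their values were seen.

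Hedgehog ligands from the endoderm act on gut mesenchyme, and BMP signals help to pattern the pylorus. Of 20 genes of these pathways, 11 rose, 2 fell and 7 passed in neither direction, with a median log2 change of 0.52. The ligand gene Shh rose from 6.79, 6.62 and 6.62 in the control pools to 8.87, 8.92 and 8.76 in the mutant pools, and the hedgehog targets Gli1 and Ptch1 rose by 2.02 (SE 0.10) and 1.86 (SE 0.10). Bmp4, Grem1 and Bmpr1b are on this list as well as on that of stomach and pylorus mesenchyme. All of them rose, so the counts of both lists share these genes. Both genes that were lower, Bmp7 (log2 change -0.63, SE 0.10) and the coreceptor gene Cdon (-0.79, SE 0.21), were named after their values were seen, and Cdon lost its call when replicate 2 of either genotype, control replicate 3 or mutant replicate 1 was left out (adjusted p up to 0.131). Shh itself, a gene of the epithelium, had a larger point estimate than Six2, 2.17 against 1.49 on the log2 scale, with SEs of 0.10 and 0.34. The 95% interval of Six2, from 0.72 to 2.25, holds the estimate of Shh, and the difference was not tested.

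Among 9 other genes of the spleen rudiment 4 were higher and 2 lower, while 3 did not pass the test, and the median was 0.35 on the log2 scale. Tcf21, which the spleen needs and which marks visceral mesenchyme, rose by 1.26 (SE 0.14), the growth factor gene Fgf9 by 0.64 (SE 0.11) and the chemokine gene Cxcl12 by 0.58 (SE 0.11). Hoxa5 fell by 0.53 (SE 0.10). Wt1, which the spleen needs too and which marks mesothelium, fell by 0.52 (SE 0.14, adjusted p = 0.0313), and lost its call when control replicate 1, 2 or 3 or mutant replicate 1 was left out (adjusted p up to 0.116). Of 6 genes of lymphoid stroma none passed the test by limma, and 1 had an unadjusted p under 0.05, with a median log2 change of 0.01. Madcam1, an adhesion molecule of vessels that depends on Nkx2-3, had a log2 change of -0.03 (SE 0.14, adjusted p = 0.916), and Cxcl13 one of 0.82 (SE 0.27, adjusted p = 0.0793) with all mutant pools above the control pools. Madcam1 was named after its values were seen.

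**Figure D5:**
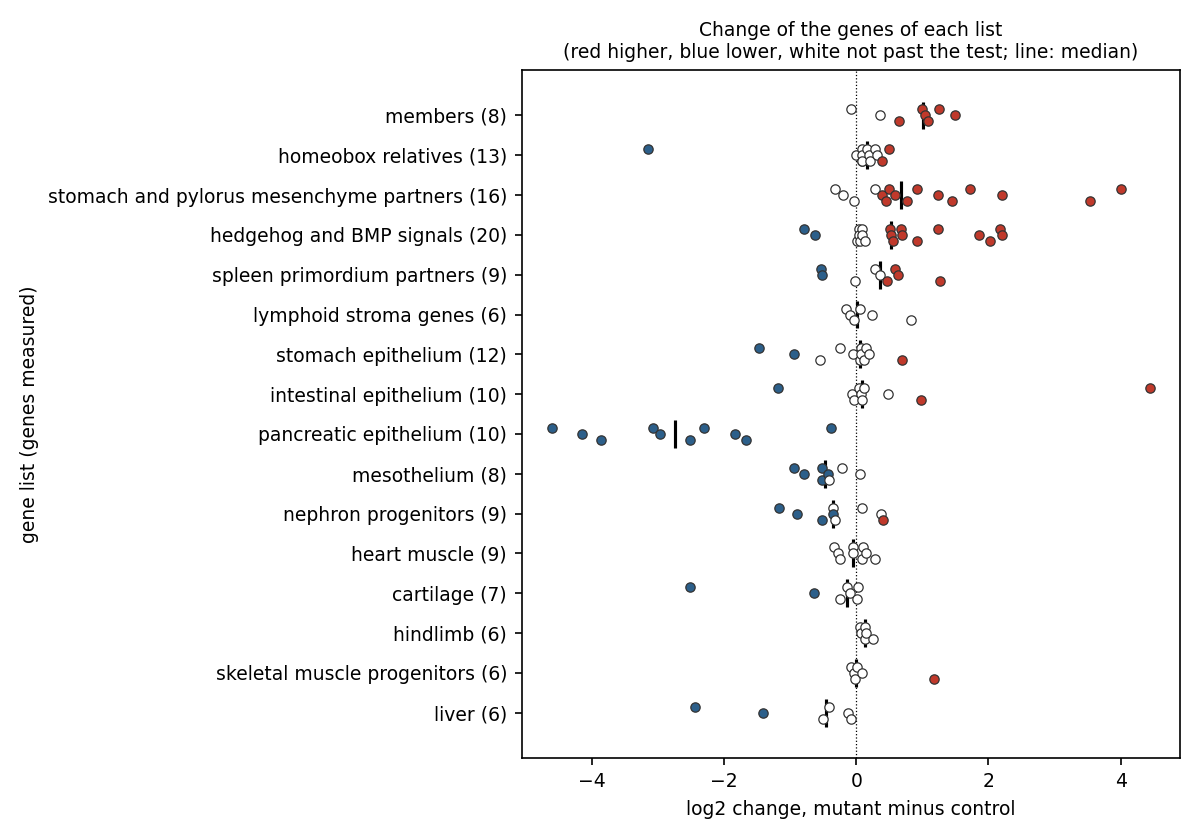
Log2 change, mutant minus control (horizontal axis), of each gene of the lists, 1 point a gene (red higher, blue lower, white not past the test), with the list's median as a black line and the number of genes measured in brackets. The 8 homeobox genes, on the line named members, have a median of 1.01, the partners of stomach and pylorus mesenchyme 0.68 and the markers of pancreatic epithelium -2.75.

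Markers of the labelled tissue and of other cell types moved beside the 8 genes. All 10 markers of pancreatic epithelium fell in mutants (median -2.75 on the log2 scale), with a summed level, the log2 of the sum of unlogged values, of 14.36 to 14.59 in controls against 11.69 to 11.82 in mutants. The endocrine factor Neurog3 (-4.61, SE 0.19), the digestive enzyme gene Cpa1 (-3.86, SE 0.13) and the duct factor Onecut1 (-3.08, SE 0.14) were among them. The count was 10 without control replicate 2 and 9 when any other single pool was left out, where Epcam (log2 change -0.39, SE 0.11, adjusted p = 0.0368) lost its call. Except for Epcam, Cdh1 and Krt8, these markers are among genes that the study picked on these arrays for being lower. Their direction is therefore not independent evidence. Of the other lists, Foxf1, Foxf2, Foxl1, Lgr5, Cdx2 and Sox2 were likewise picked for being higher, and Nkx2-2 and Gata4 for being lower. The study also shows components of the hedgehog pathway that were higher on these arrays. The direction of Shh, Gli1 and Ptch1 is therefore not taken as independent evidence either. Pdx1, the defining factor of the primordium, had values of 9.87, 9.95 and 9.97 in controls and of 5.86, 5.87 and 5.59 in mutants, a log2 change of -4.16 (SE 0.10). At the same stage the study saw more mesenchyme with smooth muscle actin in mutants, and more proliferation in mesenchyme and epithelium. The share of mesenchyme in the array pools was not measured, and its part in the increases of the 8 genes was not tested.
Several of the 8 genes are also known from other organs. Of 9 markers of nephron progenitors, where Six2 acts, 1 was higher and 4 were lower (median log2 change -0.35), and the summed level was 12.35 to 12.44 in controls against 11.61 to 11.73 in mutants. The largest of these changes was that of Gdnf, which fell by 1.16 (SE 0.12), and Osr1 fell by 0.89 (SE 0.09). Osr1 had the highest control mean of the list, 11.76, and weighs most in the summed level. Meox1, the gene that was higher, had a log2 change of 0.40 (SE 0.11, adjusted p = 0.042) and lost its call when any pool but mutant replicate 2 was left out (adjusted p up to 0.13). Wt1 is on this list too. Without control replicate 1, control replicate 2 or mutant replicate 1, 2 of the 9 were lower and none was higher. Of 9 markers of heart muscle, where Nkx2-5 acts, none passed the test by limma and 1, Myh7, had an unadjusted p under 0.05 (log2 change 0.29, SE 0.12), with summed levels of 9.41 to 9.62 in controls against 9.37 to 9.48 in mutants. Of 7 markers of cartilage, where Nkx3-2 acts, 2 were lower, Acan (log2 change -2.52, SE 0.14) and Col2a1 (-0.64, SE 0.13), with summed levels of 10.06 to 10.24 in controls against 9.35 to 9.53 in mutants. Of 6 markers of the hindlimb, where Pitx1 acts, none passed by limma and 1, Hoxc10, had an unadjusted p under 0.05 (log2 change 0.26, SE 0.11), with summed levels of 8.02 to 8.11 in controls against 8.11 to 8.24 in mutants. The mean array values of 5 of these 6 lay below the lower quartile of all genes. The part of these other organs in the changes of the 8 genes was not tested.
Of 12 markers of stomach epithelium, 1 was higher, 2 were lower and 9 did not pass (median log2 change 0.06, summed level 11.51 to 11.59 in controls against 11.09 to 11.30 in mutants). Sox2, the factor of stomach epithelium, was the one that rose, by 0.69 (SE 0.14, adjusted p = 0.00853), while Gata4 and Ctse fell by 1.47 (SE 0.17) and 0.94 (SE 0.18). Sox2 lost its call when every row of the array table was fitted (adjusted p = 0.0532). Gata6 and Gata4 had the highest control means of this list, 10.80 and 9.29, and weigh most in its summed level. The study lists Gata4 among pancreatic genes that were lower, and whether its fall lies in stomach epithelium was not tested. Of 10 markers of intestinal epithelium, 2 were higher, the Wnt target and stem cell marker Lgr5 by 4.44 (SE 0.11) and the intestinal factor Cdx2 by 0.97 (SE 0.10), and 1 was lower, Vil1 by 1.19 (SE 0.13), with a median of 0.08. Their summed level was 9.15 to 9.27 in controls against 11.27 to 11.46 in mutants. Lgr5 by itself had values of 6.53, 6.81 and 6.58 in controls and of 11.18, 10.93 and 11.15 in mutants, while the log2 changes of the other 9 lay between -1.19 and 0.97. Of 8 mesothelial markers 5 were lower and none was higher, led by Lrrn4 (log2 change -0.94, SE 0.15), Krt19 (-0.79, SE 0.13), Wt1 and Upk3b (-0.51, SE 0.13), with summed levels of 11.41 to 11.64 in controls against 10.83 to 11.17 in mutants. Krt8, another keratin gene, is on the list of pancreatic epithelium, and which cells the fall of Krt19 lies in was not tested. The mesothelial count was 2 without control replicates 2 or 3, or without mutant replicate 1, and 3 without control replicate 1, and Upk3b lost its call when control replicate 1, 2 or 3 was left out, or mutant replicate 1 or 2 (adjusted p up to 0.119).
Of 6 markers of skeletal muscle progenitors Pax3 alone rose, by 1.17 (SE 0.12), and the summed level was 8.09 to 8.22 in controls against 8.33 to 8.38 in mutants. Of 6 liver genes 2 were lower, Ttr (log2 change -2.44, SE 0.13) and Fgb (-1.41, SE 0.24). Of 13 housekeeping genes 2 were higher and 1 was lower, with a median of 0.05. Without control replicate 2, 3 were higher and 2 lower, and with any other single pool left out 1 was higher and 1 or 2 were lower (2 without control replicate 1).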

How the data were processed

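Arrays were hybridized with RNA of 3 control and 3 mutant pools, each of 3 E13.5 pancreata, and genotype and replicate number were taken from the sample labels. The authors deposited log2 values with 1 row per transcript cluster, and how they corrected, summarized and normalized the probe signals was not stated in their methods or labels. Array medians were 6.37 to 6.47. The table holds 35556 rows, of which 21789 had 1 gene symbol, 1621 several and 12146 none, by the annotation of the array. Genes with several rows (999) kept the row of highest mean. The 8 genes matched RefSeq by Entrez identifier.

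Mutant was compared with control using lmFit and eBayes of limma 3.58.1 (R 4.3.3), without covariate or filter, over 19938 genes, with Benjamini-Hochberg adjustment and a threshold of 0.05. Log2 changes are mutant minus control, and 95% intervals are those of limma. The step was tested on simulated data. P-values measure the spread between pools of 3 pancreata, and the number of arrays limits their precision. Python 3.11.15, pandas 2.3.3 and matplotlib 3.10.9 were used.

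The 8 genes, lists and motifs were chosen with earlier results of these data known. Named were the 8 genes, in each list up to 4 genes that passed, by size of change, or if none passed the gene of smallest p, and for each of the 8 the 2 genes of most similar pattern. Lists were described by counts and medians, without a set test. Array scaling, filters, rows per gene, prior, array weights, thresholds, the replicate number as a block and each pool left out were tried as alternatives.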

Additional observations from a re-analysis of the deposited data

How the results depend on the processing

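Barx1, Nkx2-3, Nkx2-5, Hlx and Pitx1 kept their direction and passed the test under every alternative run, of which there were 15 for Pitx1 and 16 for each of the others. Six2 kept its direction in all 15 of its alternatives and lost its call in 7. Nkx3-2 turned to a log2 change of 0.073 without control replicate 1 and of 0.027 without mutant replicate 2, and passed no test. Its log2 change ranged from -0.22 to 0.073 when 1 pool was left out. Leaving out each pool in turn, 5 to 6 of the 8 genes were higher and 0 were lower. With genes above the median of level, which leaves out Pitx1 and Six2, 4 of the 6 left were higher. The count was 5 with all rows of the table, with a trended and robust prior and at an adjusted p under 0.01, and the pools of 6 genes were separate under each scaling. The cause of the lost Six2 calls was not tested. Over all genes, 1313 were higher and 1502 lower, against 3025 and 2422 with array weights, 723 and 1022 at an adjusted p under 0.01, and 843 and 1132 without mutant replicate 1.

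Control and mutant pools share replicate numbers 1 to 3. The deviations of same-numbered pools from their group means correlated at 0.014, -0.15 and -0.05 across genes. Those of differently numbered pools correlated at -0.19 to 0.19. No pairing is visible in these values, which cannot exclude it with 3 pools a genotype. With the replicate block 5 of the 8 genes were higher, Six2 not passing (log2 change 1.49, adjusted p = 0.0698), and 1011 genes were higher and 1274 lower in all. Only summarized values were analysed, so it is not known which of the dimmer values lie near background. Six2 and Pitx1 had mean array values near the median of all genes.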

Other observations

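For each of the 8 genes the 2 genes with the most similar values over the 6 arrays were found by Pearson correlation among 19938 genes. With 6 arrays in 2 groups the correlation mostly reflects the difference between genotypes, and many genes reach high values, so these are descriptions. Barx1 was followed most closely by Rab34 (r = 0.9993, log2 change 0.54) and Pde1a (r = 0.9991, log2 change 1.66), and 1335 genes correlated with it above 0.9. Nkx2-3 was followed by Robo1 (r = 0.9997, log2 change 1.38), a receptor of axon guidance, and Dennd2c (r = 0.9991). For Nkx2-5 they were Prkg1 (r = 0.999), a cGMP-dependent kinase, and Cd109 (r = 0.9987), for Hlx Mb21d2 (r = 0.998) and Slc43a3 (r = 0.9967), and for Pitx1 2810410L24Rik (r = 0.9981) and Pip4k2a (r = 0.998). The genes nearest to Six2, Abhd12 (r = 0.9987) and Mfsd14b (r = 0.9971), had log2 changes of 0.12 and 0.26 that did not pass the test. Nkx3-2 (Klk1b1, r = 0.99, and Myo9b, r = 0.989) and Tlx1 (Gpc5, r = 0.9911, and Terf2ip, r = 0.9903) had 69 and 230 genes above 0.9.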
